A study of Mus musculus with 6 samples.

Results

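The Anp32 genes encode small acidic proteins of the nucleus, and 3 of them, Anp32a, Anp32b and Anp32e, were examined here by the eCLIP peaks that carry their names. Every row of the deposited peak table whose gene name was one of these 3 was taken, which gave 31 of 55449 peaks. Anp32b had 14 of them, Anp32a 9 and Anp32e 8, and none of the 31 carried a second gene name. The peaks were selected on their gene name, but the genes were chosen by their log2 fold changes and adjusted p-values of ZFP36L2 over IgG, which were known beforehand. Those values are therefore given as a description, and no test was made on them.

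The study asked which RNAs the protein ZFP36L2 touches in MLTC-1 cells, a tumour line derived from mouse Leydig cells. All cells were exposed to ultraviolet light at 254 nm with an energy of 400 mJ per square centimetre, which links proteins to bound RNA. The groups were 2 immunoprecipitation (IP) libraries made with an antibody against ZFP36L2 (ab70775), 1 IP library made with rabbit IgG (ab313801) as the negative control, and the inputs, 2 for ZFP36L2 and 1 for IgG, which sample the RNA bound by all proteins. The labels mention no change to any gene and no other treatment in any of these cells, and nothing in them says that the 2 ZFP36L2 libraries came from separate cultures. The deposited table gives, for each peak, 1 log2 fold change of ZFP36L2 over IgG and its p-values, so no value of a single library can be shown, the depth is unknown, and no standard error can be given. The direction of the fold change is taken from the name of the table. With 1 IgG library, a difference between antibodies cannot be told apart from a difference between that library and the others.

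Marker genes of several cell types were looked up by whether they had a peak at all. Of 12 Leydig cell markers, 7 had a peak, among them Cyp11a1, Lhcgr and Star, while Cyp17a1, Hsd3b1, Hsd3b6, Hsd17b3 and Insl3 had none. None of 6 Sertoli cell markers and 1 of 7 germ cell markers had one. All 5 macrophage markers and all 6 cardiac muscle markers had peaks as well, so having a peak did not single out a Leydig identity. Enriched peaks, as defined below, were 35 of 105 in the Leydig list and none of 2 in the germ cell list. They were 2 of 29 in the macrophage list and 32 of 753 in the cardiac list, where 2.22% of all peaks were enriched. Of the 35 in the Leydig list, 33 were peaks of the 1 gene Cyp11a1. By gene, 3 of 7 Leydig markers with a peak had an enriched one, against 4 of 6 cardiac and 1 of 5 macrophage markers. Over all named genes, 5.04% had an enriched peak. The part of these other cell type genes in the results was not tested.

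ANP32 proteins have leucine-rich repeats in their amino-terminal part and a long run of aspartate and glutamate residues at the carboxy terminus, which is encoded towards the 3′ end of the coding sequence. ANP32A, also called pp32 or LANP, inhibits protein phosphatase 2A and belongs with SET to a complex that keeps histones from being acetylated. ANP32B is a histone chaperone linked to cell proliferation, and ANP32E is a chaperone that removes the histone variant H2A.Z from nucleosomes together with the p400/TIP60 complex. ANP32A and ANP32B also bind HuR, a protein that recognises AU-rich elements in mRNA. ZFP36L2 itself belongs to the CCCH zinc finger proteins that bind AU-rich elements, mostly in 3′ UTRs, and promote decay of the bound mRNA.

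Enriched peaks are those whose adjusted p was below 0.05 and whose log2 fold change was 1 or more, and depleted peaks those that passed the same adjusted p with -1 or less. By these thresholds 28 of the 31 Anp32 peaks were enriched and none was depleted. Over all peaks, 2.22% were enriched and 5.44% depleted. All 24 coding peaks of the 3 genes were enriched, where 2.35% of all coding peaks were. Of 6 intronic peaks 4 were enriched, against 2.17% of all intronic peaks, and the single 3′ UTR peak was not called, with 1.46% of all 3′ UTR peaks enriched. The enriched Anp32 peaks had log2 fold changes of 1.25 to 2.78 by the authors' deposited table, with a median of 1.86. The median over all 55449 peaks of the authors' deposited table was -1.06, and over all coding peaks it was -0.72.

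**Figure D1:**
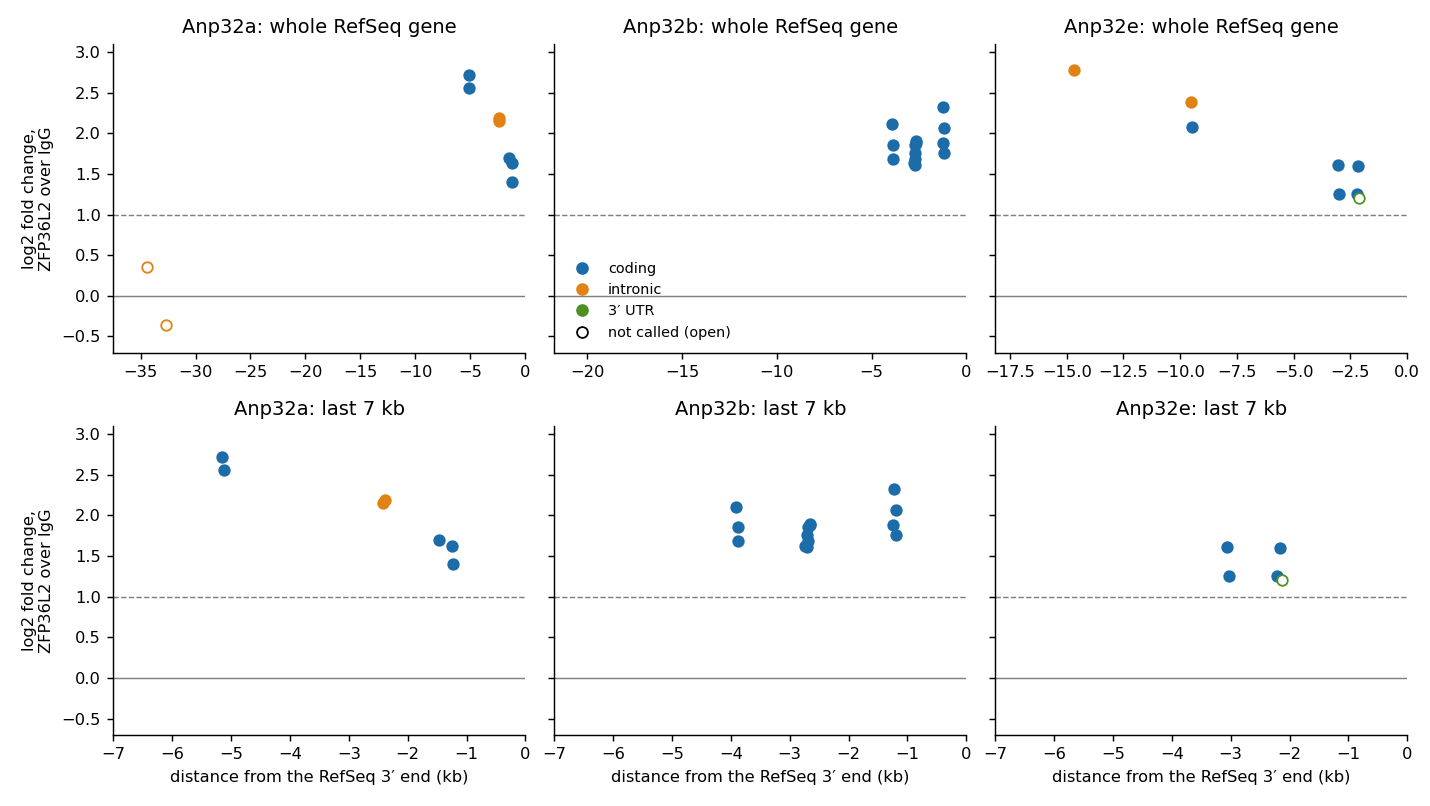
Log2 fold change of ZFP36L2 over IgG for each of the 31 Anp32 peaks against the distance of the peak from the RefSeq 3′ end of its gene, in kb, for the whole gene (top) and its last 7 kb (bottom). Colours mark coding, intronic and 3′ UTR peaks, open circles are peaks that were not called, and the dashed line is a log2 fold change of 1. All coding peaks lie above the dashed line, and all but 1 of them lie in the last 7 kb.

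Positions are on mouse genome build mm10, and gene spans are those of RefSeq on GRCm38.p6, the same build. All 3 genes lie on the plus strand, so coordinates grow from the 5′ to the 3′ end. Exon coordinates and base sequences were not used here. Places along the coding sequence are therefore given by the table's own region labels, the order of the peaks and genomic distances that include introns, and peaks could not be set against codons or against the acidic tail.

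Anp32b, on chromosome 4 from 46450926 to 46472657, had only coding peaks, and all 14 were enriched. They lay in 3 separate stretches, taken here as peaks at most 100 nucleotides apart, all within the 3′ part of the gene from 82.0% to 94.5% of its length. The first stretch, at 46468708 to 46468787, held 3 peaks that touch end to end. Its long first peak of 69 nucleotides had a log2 fold change of 2.11 with an adjusted p of 9.1e-25 by the authors' deposited table, and the short ones after it had 1.69 and 1.86. The second stretch began 1095 nucleotides further on, at 46469883 to 46470007, where 7 peaks tiled 125 nucleotides without a gap. In order from the 5′ side, their log2 fold changes by the authors' deposited table were 1.63, 1.76, 1.61, 1.86, 1.68, 1.90 and 1.88. All 7 thus lay between 1.61 and 1.90, with no single peak far from its neighbours.

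The third Anp32b stretch, at 46471398 to 46471467, held 4 peaks that covered 51 of 70 nucleotides. It contained the Anp32 peak with the smallest adjusted p, a peak of 20 nucleotides at 46471422 to 46471441 where the log2 fold change was 2.32 (adjusted p = 1.6e-28) by the authors' deposited table. The peak before it had 1.88, and the pair after it, beyond a gap of 19 nucleotides, had 2.07 and 1.76 by the authors' deposited table. The last of them ended 1190 nucleotides before the RefSeq end of the gene. In all, the 14 peaks covered 256 nucleotides, and their values differed little: the standard deviation over peaks was 0.20 on the log2 scale, where the median over the 1139 genes with at least 5 coding peaks was 0.94. Touching peaks can share reads and are not replicates, so the small spread of Anp32b is not one among separate sites. The other genes were not matched for touching peaks.

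Anp32a, on chromosome 9 from 62341343 to 62378804, had 5 coding and 4 intronic peaks. A pair of intronic peaks near the 5′ end, 3070 and 4769 nucleotides into the gene, had log2 fold changes of 0.36 and -0.36 by the authors' deposited table, both with an adjusted p of 1. The next peak lay 27504 nucleotides downstream, and from there on all 7 peaks were enriched. The first coding stretch, at 62373629 to 62373677, had the highest values of the gene, 2.72 (adjusted p = 4e-24) for its peak of 46 nucleotides and 2.56 for the 3 nucleotides after it by the authors' deposited table. A stretch of 63 nucleotides labelled intronic followed at 62376376 to 62376438, with 2.15 (adjusted p = 4.6e-20) and 2.19 (adjusted p = 1.6e-15) by the authors' deposited table. A coding peak of 70 nucleotides at 62377299 to 62377368 had 1.70 (adjusted p = 2.5e-15), and the last coding stretch, at 62377553 to 62377605, had 1.63 and 1.40 by the authors' deposited table. Among the enriched peaks of Anp32a, the log2 fold change was thus lower in each stretch than in the one 5′ of it. The coding peaks covered 172 nucleotides between 86.2% and 96.7% of the length of the gene, and the last ended 1199 nucleotides before its RefSeq end.

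Anp32e, on chromosome 3 from 95929245 to 95947387, had 5 coding peaks, 2 intronic peaks and 1 in the 3′ UTR. An intronic peak of 1 nucleotide at 95932709 had the largest log2 fold change of the 3 genes, 2.78, with an adjusted p of 9.8e-05 by the authors' deposited table. Further along, an intronic peak of 4 nucleotides at 95937874 to 95937877 had 2.38 (adjusted p = 1.4e-18), and 33 nucleotides after it a coding peak of 20 nucleotides at 95937911 to 95937930 had 2.08 (adjusted p = 4.3e-18) by the authors' deposited table. By these labels a boundary between intron and coding sequence lies between this pair of peaks. The coding peak sits at 47.8% of the length of the gene and is the one coding peak of the 3 genes outside the last 20% of the gene span.

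The remaining Anp32e peaks lay close to the end of the coding sequence. At 95944307 to 95944361, a peak of 52 nucleotides had a log2 fold change of 1.61 at an adjusted p of 2.3e-10, and the 3 nucleotides after it 1.25 by the authors' deposited table. At 95945179 to 95945250, the values by the authors' deposited table were 1.25 over 5 nucleotides and 1.60 (adjusted p = 3.4e-10) over 67 nucleotides. The 3′ UTR peak began 4 nucleotides after this last coding peak, so by the labels the coding sequence ends between them. That peak, 15 nucleotides long, had 1.20 with an adjusted p of 0.63 by the authors' deposited table and was not called, whereas the called peak with the largest adjusted p, a coding peak of 3 nucleotides in Anp32e, had 1.25 with an adjusted p of 0.00037. Neither Anp32a nor Anp32b had a peak labelled 3′ UTR.

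Across the 3 genes, 23 of 24 coding peaks lay in the last 20% of the gene span. Over the table, 37% of coding peaks that lie inside a RefSeq span did so, and 42.9% of enriched coding peaks. The median place of a coding peak was 96.1% of the span in Anp32a, 87.6% in Anp32b and 83.3% in Anp32e, and 70.7% over all coding peaks. Touching peaks enter these counts singly. With them merged, the 24 became 10, and 14 of the 24 were peaks of Anp32b. These places depend on intron lengths, and Anp32a had no peak in the 27504 nucleotides between its 5′ intronic peaks and its first coding peak.

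The Anp32 peaks combined modest fold changes with small adjusted p-values. Of all enriched peaks, those of Anp32 included, 6.01% had a log2 fold change at or below the Anp32 median of 1.86. The median over all enriched peaks was 3.27 by the authors' deposited table. The adjusted p of the enriched Anp32 peaks had a median of 2.6e-15, against 6.9e-07 over all enriched peaks of the authors' deposited table. When the comparison was held to enriched coding peaks with log2 fold changes of 1.25 to 2.72, the range of the Anp32 coding peaks, the 24 Anp32 peaks had a median adjusted p of 5.8e-15 and the 135 peaks of other genes one of 0.0042 by the authors' deposited table. The 3 genes were chosen with these adjusted p-values known, so the contrast is a description and lends them no support. Touching peaks, which can share reads, enter it singly. The Anp32 coding peaks were also short, with a median of 12.5 nucleotides, against 53 for those 135. Many of them touch end to end, so this median describes single peaks and not the runs they form. With touching peaks merged, the 24 became 10, which together covered 575 nucleotides. The lengths of the 135 were not compared after merging. Read counts were not used here, and the part that depth has in these p-values was not tested.

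**Figure D2:**
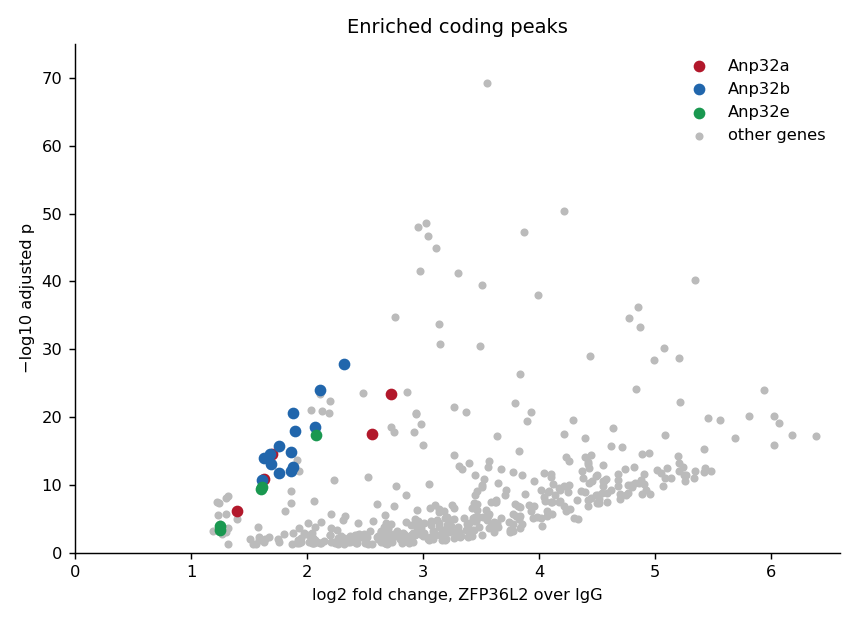
Log2 fold change of ZFP36L2 over IgG (horizontal) against −log10 of the adjusted p (vertical) for the 482 enriched coding peaks of the deposited table, with the peaks of Anp32a, Anp32b and Anp32e in colour and those of other genes in grey. The Anp32 peaks lie at log2 fold changes of 1.25 to 2.72, in the left part of the cloud.

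The 24 Anp32 coding peaks made up 4.98% of the 482 enriched coding peaks of the table, which fell in 288 genes, 206 of them with 1 such peak. By number of enriched coding peaks, Anp32b came second after Ttn, which encodes the giant muscle protein titin and had 18 among 566 coding peaks. This share and this rank count touching peaks singly. With touching peaks merged, the 24 Anp32 coding peaks became 10, and neither the share nor the rank was recomputed. In 7 of the 1139 genes with at least 5 coding peaks, every coding peak was enriched. Besides the 3 Anp32 genes these were Cdk11b (8 peaks), a kinase of transcription and splicing, Hmgn5 (8), a nucleosome-binding protein, Canx (7), the endoplasmic reticulum chaperone calnexin, and Ythdc1 (6), a nuclear reader of N6-methyladenosine. These were named after their values were seen. Touching peaks count separately towards the minimum of 5, and with them merged none of the 3 Anp32 genes would reach it.

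**Figure D3:**
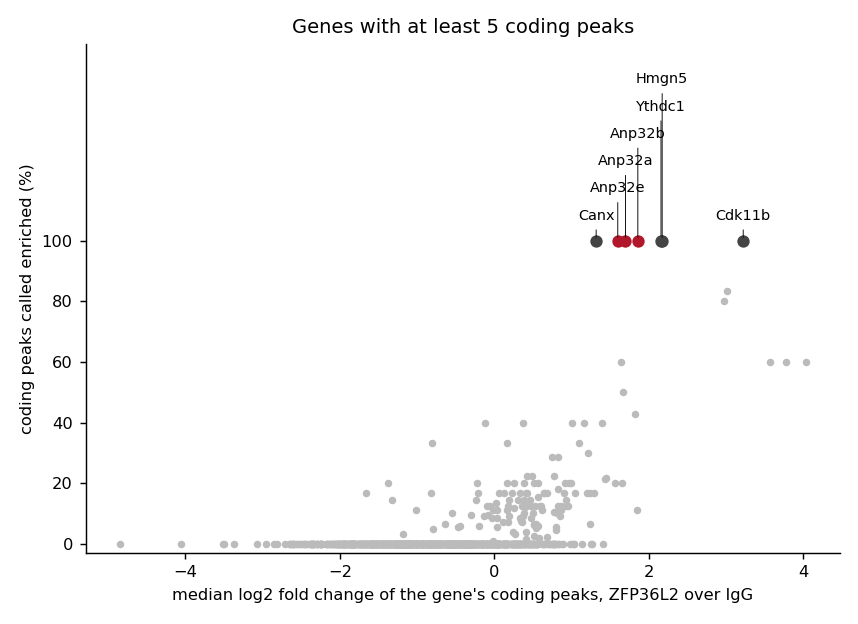
Share of coding peaks called enriched, in percent, against the median log2 fold change of ZFP36L2 over IgG of the coding peaks, for the 1139 genes with at least 5 coding peaks. The 7 genes with all coding peaks enriched are named, the 3 Anp32 genes in red, at medians of 1.60 to 1.86. Touching peaks are counted separately.

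The genes most like the Anp32 family were ranked by their distance from its pooled peaks in 3 measures taken from this 1 comparison: the share of peaks that are coding, the share of coding peaks that are enriched, and the median log2 fold change of the coding peaks. Each measure was divided by its standard deviation over the 2584 genes with at least 3 coding peaks. The 5 nearest were Ythdc1, Ncl, Hmgn5, Canx and Cdk11b, at distances of 0.57, 0.92, 0.98, 1.17 and 1.66. The Anp32 genes themselves lay 0.61 (Anp32e), 0.87 (Anp32a) and 0.90 (Anp32b) from the pool. Ncl encodes nucleolin, the acidic protein of the nucleolus. Its 4 coding peaks were all enriched, with a median of 1.98 by the authors' deposited table.

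Anp32b-ps1, a pseudogene of Anp32b on the same chromosome at 143389446 to 143390499, is listed under its own name and was not counted among the 31 peaks. It had 5 peaks of the class other, all enriched, between 143390133 and 143390374, where 3.36% of all peaks of that class were enriched. Their log2 fold changes by the authors' deposited table were 1.44, 2.74, 2.81, 2.89 and 2.11 from the 5′ side, with a smallest adjusted p of 5.9e-25. The median of 2.74 was above that of Anp32b, at 1.86. The sources used here do not say how reads that fit both copies were assigned, so the Anp32b values and those of the pseudogene are uncertain to that degree.

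For context, the gene with peaks nearest to those of an Anp32 gene was taken on each side. This gave Glce and Coro2b for Anp32a, Xpa and Nans for Anp32b, and Car14 and Plekho1 for Anp32e. Of their 22 peaks none was enriched and none depleted, a number of peaks at which the shares over all peaks, 2.22% enriched and 5.44% depleted, give few calls. Their median log2 fold changes by the authors' deposited table ran from -1.25 in Coro2b to 0.13 in Plekho1. The closest of them by peak positions was Nans, which encodes sialic acid synthase. Its first peak lay 29.3 kb from the last Anp32b peak, and its peaks had log2 fold changes of -1.70 and 0.02 by the authors' deposited table.

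Genes that work with ANP32 proteins, or are related to them by function or structure, were read in the same table by lists drawn from textbook knowledge. Over all 10818 named genes, 5.04% had an enriched peak and 17.3% a depleted one. In the list named INHAT and SET complex, 3 of 6 genes had a peak, 1 with an enriched one and none with a depleted one. The list is wider than the histone acetylation inhibitor that ANP32A shares with SET. Set itself, which encodes the other inhibitor of protein phosphatase 2A, had 6 peaks with log2 fold changes of -2.13 to 1.12 by the authors' deposited table, and no peak was called. Hmgb2, a DNA-bending HMG box protein, had a pair of enriched 5′ UTR peaks, the better at 6.13 (adjusted p = 6e-21) by the authors' deposited table, and no enriched coding peak.

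In protein phosphatase 2A, the enzyme inhibited by ANP32A, none of 6 genes with a peak had an enriched one and 4 had a depleted one. Over all named genes the shares were 5.04% and 17.3%, which are not matched for the number of peaks per gene. Ppp2r5c had 17 peaks and Ppp2r5e 13. The regulatory subunit gene Ppp2r5c had its best peak at -3.83 (adjusted p = 0.001) and the catalytic subunit gene Ppp2ca at -2.55 (adjusted p = 0.011) by the authors' deposited table, both intronic. The regulatory subunit genes Ppp2r2a and Ppp2r5e also each had a depleted intronic peak, at -3.23 and -2.95 by the authors' deposited table. The list's 42 peaks had a median of -1.50, and 5 of them were depleted, where 5.44% of all peaks were. At an adjusted p under 0.01, only 1 of the 4 genes kept a depleted peak.

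In the H2A.Z and p400/TIP60 list, 12 of 19 listed gene symbols had a peak. The list is wider than the partners of ANP32E, since it also holds Srcap. The 19 symbols hold both older and newer names of the H2A.Z genes. Of the 12, 1 had an enriched peak and 3 a depleted one, beside shares of 5.04% and 17.3% over all named genes. Of their 91 peaks, 1 was enriched and 5 were depleted, where 2.22% and 5.44% of all peaks were. The enriched one was Srcap, the ATPase that deposits H2A.Z, in which 1 of 16 coding peaks was enriched, at 4.92 (adjusted p = 6e-10) by the authors' deposited table. Trrap, a scaffold of acetyltransferase complexes, reached -4.19 (adjusted p = 3e-05) and Epc1, a subunit of the TIP60 complex, -3.46 (adjusted p = 0.0046) by the authors' deposited table. Ep400, the p400 ATPase, had 1 depleted peak close to the threshold, at -3.20 with an adjusted p of 0.049 by the authors' deposited table. These 3 peaks were intronic. H2az1, which encodes H2A.Z, had 1 peak, at 0.92 with an adjusted p of 1 by the authors' deposited table. In the list of HuR and nuclear export, all 6 genes had a peak, none enriched and 1 depleted. These counts are near the shares over all named genes, so they set the list apart in neither direction. The depleted gene was Elavl1, the gene of HuR, with a best value of -2.97 (adjusted p = 0.0028) in an intron by the authors' deposited table.

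Among 16 histone chaperones and related nuclear proteins with acidic stretches that had a peak, 4 had an enriched and 2 a depleted one. Over all named genes the shares were 5.04% and 17.3%. Of their 63 peaks, 10 were enriched and 5 depleted, and the median was 0.12. Ncl had 4 enriched coding peaks with values from 1.91 to 2.11, and Tspyl2, a nucleosome assembly protein relative, had 2 of 4 peaks enriched, both coding and up to 4.68 (adjusted p = 2.5e-12) by the authors' deposited table. Ptma, which encodes the acidic protein prothymosin alpha, had 2 of 9 peaks enriched, both intronic, the better at 4.65 (adjusted p = 6.6e-11) by the authors' deposited table. Hmgb2 is on this list too. Nap1l4, a nucleosome assembly protein, had 7 peaks of which 4 were depleted, reaching -3.92 (adjusted p = 7.1e-06) by the authors' deposited table, and Hmgb1 had 1 depleted intronic peak. Npm1, which encodes the abundant nucleolar protein nucleophosmin, had 1 coding peak at 0.33 with an adjusted p of 1 by the authors' deposited table. Of 5 genes with leucine-rich repeats like those of ANP32, such as Nxf1 and Snrpa1, none had a called peak. At that number of genes the shares over all named genes give few calls. The median over their 20 peaks was -0.28.

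**Figure D4:**
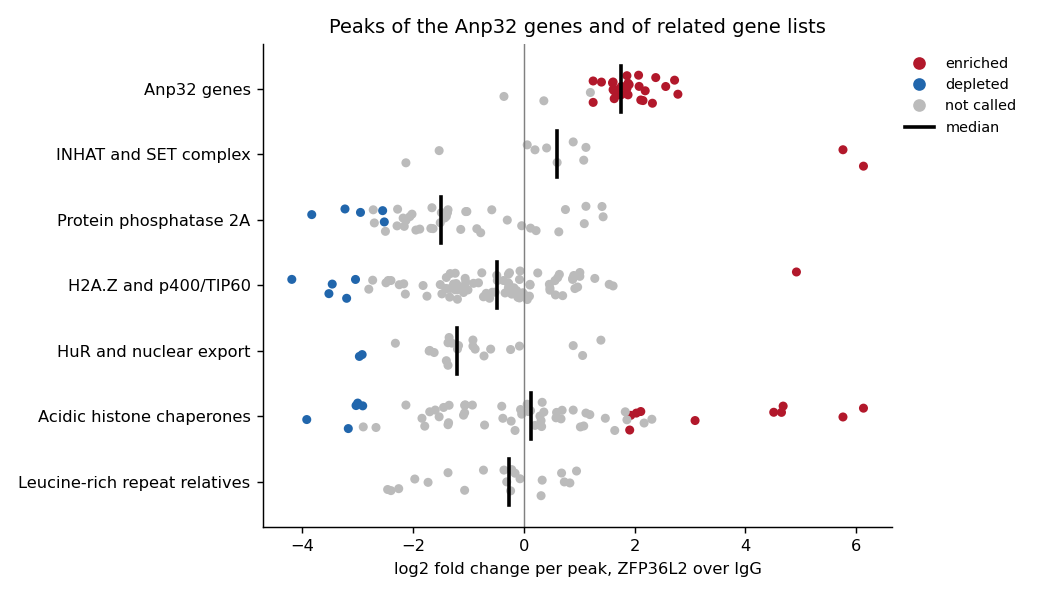
Log2 fold change of ZFP36L2 over IgG for every peak of the Anp32 genes (top) and of 6 related gene lists, with enriched peaks in red, depleted in blue and the others in grey, and the median of each list as a black bar. The Anp32 peaks have a median of 1.76, and the medians of the lists run from -1.50 to 0.60.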

How the data were processed

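The data were eCLIP libraries of MLTC-1 cells. The tools named in the submitters' processing notes are cutadapt 3.2, UMI-tools 1.1.1, DESeq2 1.34.0 and STAR 2.7.7a, on build mm10, and the notes give neither their role nor their order. The sources used here do not say how peaks were called or whether inputs entered the fold change. Each peak has a log2 fold change, a log2 value computed by the authors. Its p-value and adjusted p-value were deposited on the −log10 scale and were converted to plain p-values for the text. A Benjamini-Hochberg adjustment of the p-values over all 55449 peaks gave the deposited adjusted values to within 0.0099 on that scale. The table has 0 columns that name a library, so no depth, interval or test of its own could be added.

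Starts were turned to 1-based positions. Peaks were matched by exact gene name, and all 3 Anp32 symbols were found in RefSeq. Calculations used Python 3.11.15, pandas 2.3.3 and numpy 2.4.6, and the calling and merging steps were tested on simulated data. Named genes were the Anp32 genes, up to 4 genes of each list by adjusted p among called peaks, and the 5 genes most like the family; any other gene was picked once its values had been seen. The members, lists and thresholds were chosen with earlier results of these data known.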

Additional observations from a re-analysis of the deposited data

How the results depend on the processing

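Of the 31 Anp32 peaks, 28 were enriched as reported, 10 at a log2 fold change of at least 2, 13 of 16 when touching peaks were merged, and 14 of 17 when only peaks of at least 10 nucleotides were kept, an alternative chosen after seeing the data. At an adjusted p under 0.01 the count stayed 28, as it had to, since the largest adjusted p of the 28 was 0.00037 by the authors' deposited table. Centring on the median of all peaks, -1.06, raised every fold change by the same amount and left the adjusted p-values unchanged. It could neither remove an enriched peak nor add one with an adjusted p above 0.05, so its count of 28 is no check. No alternative gave a median below 0. Centred on the median, the median log2 fold changes were 2.76 in Anp32a, 2.92 in Anp32b and 2.67 in Anp32e. As deposited they were 1.70, 1.86 and 1.60, and the shift is set by the centring itself. With touching peaks merged they were 1.67, 2.09 and 1.85, and in peaks of at least 10 nucleotides that of Anp32b was 1.89. The median place of the coding peaks was 87.9% of the gene span with touching peaks merged, against 87.6%. At an adjusted p under 0.01, genes with a depleted peak fell to 1 in the protein phosphatase 2A list, against 4, and to 1 among acidic histone chaperones, against 2. The other list counts stayed within 1.5 times. The cause of these differences was not tested beyond the construction of each alternative, which counts fewer or shifted peaks. No paired analysis was possible because the table holds no values of single libraries, and for the same reason no library could be left out. The 1 IgG library, the unknown depth and the unstated handling of reads shared with the pseudogene limit every value given here.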

Other observations

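Enriched peaks with a log2 fold change under 2 were few in the deposited table, 103 of 1231, and 18 of them (17.5%) were Anp32 peaks. Of all 1231 enriched peaks, 28 were Anp32 peaks. The 103 fell in 60 genes. Anp32b held 11 of them, Anp32e 4 and Anp32a 3, with touching peaks counted singly. Outside the family, Canx, the calnexin gene, held 6, Atp6v1e1, a subunit gene of the vacuolar proton pump, and Cyp11a1, the first enzyme of steroid synthesis, 5 each, and Dek, a chromatin protein gene, and Ttn 4 each. These genes were named after their values were seen.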
